A study of Mus musculus with 2 samples.

Results

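Histone genes were followed in RNA sequencing libraries from cultured mouse oligodendrocytes, comparing genes of the replication-dependent clusters with genes of replacement variants. Members were the rows of either library table whose symbol begins with Hist1h to Hist4h, H2af, H1f or H3f. The rule found 63 of the 18651 genes listed in either library. Of these, 53 are cluster genes (symbols beginning with Hist) and 10 are replacement variants. The study has 1 library from control cells, labelled wild type, and 1 from Seh1cKO cells, labelled mutant, both on the C57BL/6 strain. Precursor cells were immunopanned from forebrain tissue of pups at postnatal day 4 to 7 and expanded with PDGF-AA, CNTF, bFGF and NT3. They were then differentiated with 60 nM triiodothyronine (T3), a thyroid hormone, without PDGF-AA, bFGF and NT3, and taken as immature oligodendrocytes at day 2. Seh1, the product of Seh1l, is a scaffold protein of the nuclear pore. The sources used here do not give the Cre driver, the deleted exons, the sex or the number of animals pooled.

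Histones package DNA into nucleosomes, built from H2A, H2B, H3 and H4 and closed by the linker histone H1. Genes of the replication-dependent clusters are read mainly in S phase, and their mRNA usually ends in a short stem-loop in place of a poly(A) tail. The stem-loop-binding protein Slbp carries that mRNA through processing and translation. Replacement variants are read throughout the cell cycle, mostly as mRNA with a poly(A) tail, and they replace the S phase histones in cells that no longer divide, such as maturing oligodendrocytes. Some cluster genes are also known to give polyadenylated mRNA in differentiating cells.

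The stem-loop is shown because it is the feature known to mark mRNA of the cluster genes. It was searched in the GENCODE M21 transcript (mm10) of each member nearest in length to the deposited one, as a 16-base form with paired arms of 6 bases, here in capitals, around a loop of 4 bases. It was found in 35 of the 52 cluster genes with a GENCODE transcript and in 1 of the 10 replacement genes, H2afx. Transcript models that stop at the coding end cannot hold it, so a missing match says only that the letters are not in that model. The commonest form stood in 22 cluster genes, among them Hist1h2ap and Hist3h2ba, whose mRNA differed in opposite directions below. The form of Hist1h4c was shared by 6 H4 genes, and the form of Hist1h3f by 4 genes of H2B and H3.
Hist1h2ap and Hist3h2ba: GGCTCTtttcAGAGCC
Hist1h4c: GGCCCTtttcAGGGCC
Hist1h3f: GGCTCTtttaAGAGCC
H2afx: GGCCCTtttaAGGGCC

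The libraries held 20730114 assigned reads in control against 20599590 in Seh1cKO, so each difference is one between 2 libraries and no test of genotype was possible. Levels between libraries are given in CPM, reads per 1000000 reads of the library. Ratios carry exact 95% Clopper-Pearson intervals from both read numbers, which cover counting error only. Seh1l was at 32.1 CPM in control against 18.5 CPM in Seh1cKO. All 10 oligodendrocyte lineage markers were measured, with summed levels of 4566 and 2671 CPM. Of them, 6 were at least 2-fold lower in Seh1cKO, beside 1.29% of all genes at the floor. The other 4 had log2 ratios above 0. Pdgfra was at 156 CPM in control against 277 CPM in Seh1cKO, Cspg4 at 98.8 and 148 CPM, and Olig2 at 496 and 648 CPM. Olig1 was nearly equal, at 864 and 873 CPM. Markers of other cells also differed. Fibroblast and mural markers (9 of 9 measured) summed to 208 CPM in control against 621 CPM in Seh1cKO, epithelial markers (5 of 5) to 10.5 and 170 CPM, and astrocyte markers (7 of 7) to 8747 and 5270 CPM. The astrocyte sum rested mainly on Gfap (5200 and 2214 CPM), and 2 of its 7 markers were above 0, with a median log2 ratio of -0.19. Endothelial markers (all 5, with 4 at the floor) summed to 10.9 and 25.3 CPM, and microglia markers (all 5, with 3 at the floor) to 6.56 and 15.1 CPM. Neuron markers (6 of 6) summed to 414 and 436 CPM. Map2 (279 and 270 CPM) carried the neuron sum, while 4 of the 6 were above 0 and the median was 0.70. Cdh5 (1.01 and 13.8 CPM) carried the endothelial difference. Krt8 (0.772 and 78.7 CPM) and Krt18 (1.21 and 63.9 CPM) carried most of the epithelial one. Of the 5 epithelial markers 4 were above 0, while Epcam was at 7.91 and 7.04 CPM. Xist, which silences an X chromosome in female cells, was at 0.868 and 341 CPM, so the sex of the cells and the genotype cannot be told apart. The part of these differences in the histone values was not tested. In bulk RNA, fewer cells of a type and less RNA per cell cannot be told apart.

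Replacement variants made up most of the histone FPKM in both libraries. On the deposited FPKM scale, reads per kilobase of transcript and per 1000000 reads, the 10 replacement genes summed to 1765 in control and 1642 in Seh1cKO. The 53 cluster genes summed to 405 and 426 FPKM. All 10 replacement genes reached a mean of 1 CPM over both libraries, the floor used here, against 12 of the 53 cluster genes and 73.8% of all genes. The classes stood furthest apart in H3. The replacement genes H3f3a and H3f3b together had 952 FPKM in control against 859 FPKM in Seh1cKO, while the 10 H3 genes of the clusters had 5 and 5.1 FPKM, or 0.523% and 0.590% of the H3 total. In H2A, cluster genes gave 29.1% of the FPKM in control and 34.1% in Seh1cKO, and in linker H1 they gave 9.16% and 9.13%. No replacement gene of H2B or H4 is among the members. The 13 H2B cluster genes summed to 110 FPKM in control against 68.3 FPKM in Seh1cKO, and the 9 H4 genes to 5.65 and 4.55 FPKM. Of the RNAs known to lack a tail that were checked, Rn45s alone reached the floor, at 22 and 24.1 CPM, and Rn7sk had 5 and 17 reads. How far the capture of tailed mRNA sets these class shares was not tested.

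**Figure D1:**
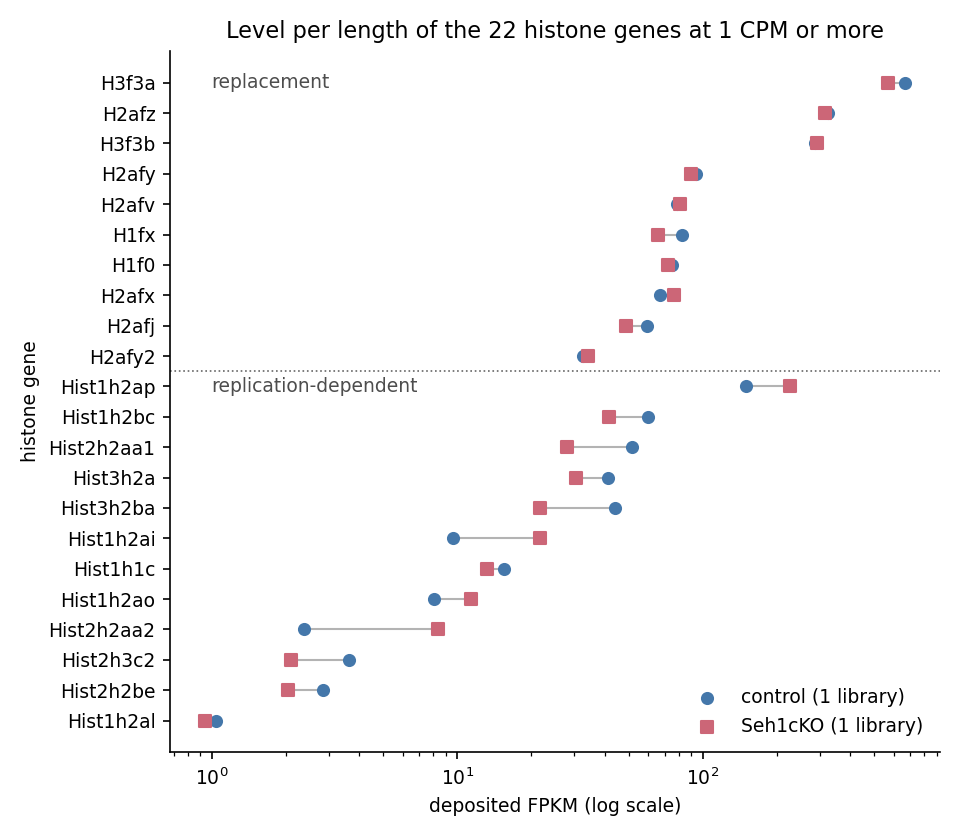
Deposited FPKM (log axis) of the 22 histone genes that reached the floor of 1 CPM, with circles for the control library and squares for the Seh1cKO library. The 3 highest are the replacement genes H3f3a, H2afz and H3f3b; Hist1h2ap is the highest cluster gene, at 151 and 227 FPKM.

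H3f3a, a gene of the replacement H3 variant, had the highest FPKM of the histone genes in both libraries. It (chromosome 1, 180802560 to 180813605; positions here are RefSeq, GRCm38.p6, the assembly of mm10) was at 712 CPM in control against 607 CPM in Seh1cKO. The Seh1cKO level was 1.17-fold lower (1.15 to 1.20). Its sister gene H3f3b (chromosome 11, 116021961 to 116026039), which encodes the same H3 variant, was at 571 and 582 CPM, with a ratio of 1.02 (0.995 to 1.05). On the CPM scale the libraries were thus separated beyond counting error for H3f3a and not for H3f3b. After rescaling by the median of ratios the log2 ratio of H3f3b was -0.048, and no interval is given on that scale. Of the H3f3a transcript's stretches of 50 bases, 43.9% also occur in other annotated genes, the closest being Gm6421. The sources used here do not say how such reads were assigned.

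Of the 6 variants of H2A, 4 were close to equal between libraries. H2afz, whose product H2A.Z marks promoters, was at 341 CPM in control against 331 CPM in Seh1cKO, and the related H2afv at 128 and 132 CPM. The macroH2A genes H2afy and H2afy2, whose products carry a large extra domain, were at 185 and 177 CPM and at 62.4 and 65.0 CPM. On the CPM scale the intervals of these 4 genes included a ratio of 1, and no interval is given on another scale. Of the stretches of 50 bases in the H2afz transcript, 33.2% also occur in other annotated genes, the closest being Gm8203. H2afx, which encodes the H2A form phosphorylated at DNA breaks and which is known to make a stem-loop mRNA beside a polyadenylated one, was at 93.6 CPM in control against 107 CPM in Seh1cKO, 1.14-fold higher (1.08 to 1.22). No other replacement gene had an interval above 1. H2afj was at 109 and 89.1 CPM, 1.22-fold lower (1.15 to 1.30).

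Among the linker variants, H1f0, known to accumulate in cells that leave the cell cycle, was at 174 CPM in control against 167 CPM in Seh1cKO, a ratio of 0.959 (0.915 to 1.01). H1fx was at 91.7 and 73.1 CPM, 1.26-fold lower (1.17 to 1.34), the lowest ratio of the class. Across the 10 replacement genes the ratios ran from 0.797 to 1.14, and none reached 2-fold in either direction on the scale log2(CPM + 1), used for all calls here. Over all 13758 genes at the floor, 2.86% passed 2-fold upward and 1.29% downward. The median log2 ratio of the class was -0.05, beside 0.07 for all genes. Of the 10 genes, 6 were below 0 and 4 above, beside 39.1% and 60.9% of all genes, and 3 of those 4 (H3f3b, H2afv and H2afy2) went below 0 under median-of-ratios scaling.

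**Figure D2:**
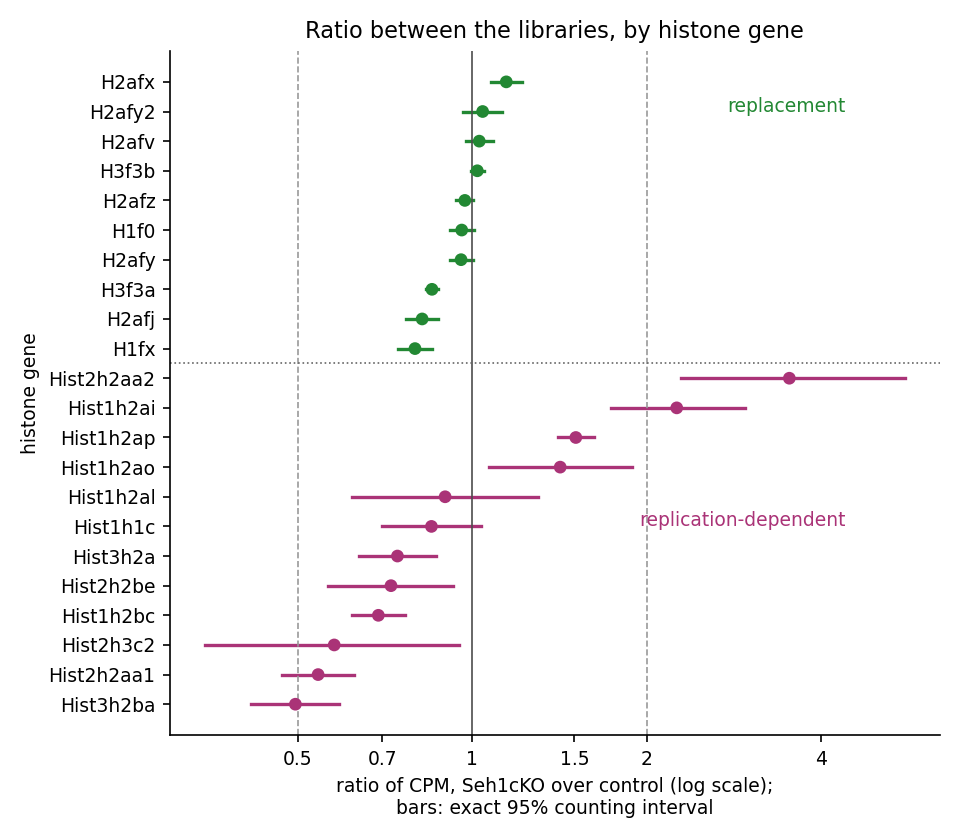
Ratio of CPM in Seh1cKO over control (log axis) for the 22 histone genes at the floor, with exact 95% counting intervals as bars and dashed lines at 2-fold. Replacement genes lie between 0.797 and 1.14, and cluster genes between 0.496 and 3.52.

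The cluster genes spread more widely than the replacement genes. Of the 12 at the floor, 4 had a counting interval above 1 and 6 below 1, against 1 and 3 of the 10 replacement genes. For all genes at the floor these shares were 35.5% above and 20.0% below. The median absolute log2 ratio was 0.51 for the cluster genes, 0.06 for the replacement genes and 0.19 for all genes, and cluster genes were the lower in read number. As a sum the cluster genes hardly differed, at 213 CPM in control against 211 CPM in Seh1cKO, a ratio of 0.991 (0.95 to 1.03). This near equality was the sum of opposite differences. The 16 H2A genes summed to 125 CPM in control against 151 CPM in Seh1cKO, a ratio of 1.20 (1.14 to 1.27), and the 13 H2B genes to 71.4 and 46.3 CPM, 1.54-fold lower (1.42 to 1.68). The median log2 ratio of the 12 genes was -0.31, with 8 below 0 and 4 above, beside 39.1% and 60.9% of all genes.

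Hist1h2ap (chromosome 13, 21833024 to 21833475), an H2A gene, was the most abundant cluster gene. It was at 63.8 CPM in control against 96.2 CPM in Seh1cKO, 1.51-fold higher (1.41 to 1.62). Hist1h2ao was at 4.25 and 6.02 CPM, 1.42-fold higher (1.07 to 1.89). Hist1h2ai was at 4.05 and 9.13 CPM, 2.25-fold higher (1.73 to 2.95). It was 1 of the 2 cluster genes past 2-fold, of 12 at the floor, beside 2.86% of all genes upward. These genes share sequence: of the stretches of 50 bases in the Hist1h2ap transcript, 93.1% also occur in Hist1h2ao and 54.5% in Hist1h2ai. The deposited expected counts, which need not be whole where reads are shared, were not whole for 92.9% of the cluster genes listed in control and 90.2% of those in Seh1cKO. Over all genes the shares were 29.3% and 29.5%. A value for a single copy therefore depends on how the authors' counting split shared reads.

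Members were therefore also summed in linked sets, a choice made after the data were seen. A link was made where at least 50% of the stretches of either transcript occur in the other, and links were chained, so not every member of a set is near-identical to the rest. The 9 Hist1 H2A genes linked to Hist1h2ap include Hist1h2ac, with 14.1% of its stretches in any other gene. The 9 genes had 1524 reads in control against 2344 in Seh1cKO. The sum was at 73.5 and 114 CPM, 1.55-fold higher (1.45 to 1.65). Within this set single copies went both ways. Hist1h2an had 0 and 37 reads, Hist1h2af 0 and 10, Hist1h2ag 17 and 0, and Hist1h2ad 8 and 0. The summed value is higher in Seh1cKO, and the split among copies does not have that direction throughout. The set held 34.5% of all reads of cluster genes in control and 53.8% in Seh1cKO. Without it, the other 44 cluster genes summed to 140 and 97.6 CPM, 1.43-fold lower (1.35 to 1.52).

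The H2A genes of the Hist2 cluster gave the opposite result. Hist2h2aa1 was at 27.3 CPM in control against 14.8 CPM in Seh1cKO, 1.84-fold lower (1.6 to 2.13). Hist2h2aa2 was at 1.35 and 4.76 CPM, 3.52-fold higher (2.29 to 5.57). Every stretch of 50 bases in the Hist2h2aa2 transcript (100%) also occurs in Hist2h2aa1, so the separate values rest on the authors' split. Of the stretches of Hist2h2aa1, 89.4% also occur in Gm20634, which is not a member. Any reads assigned to Gm20634 are outside the sum of the pair. Summed, this pair had 594 reads in control against 403 in Seh1cKO, 1.46-fold lower (1.29 to 1.67). With linked members summed, 0 sets or single cluster genes at the floor passed 2-fold, where single rows had given Hist2h2aa2 and Hist1h2ai.

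**Figure D3:**
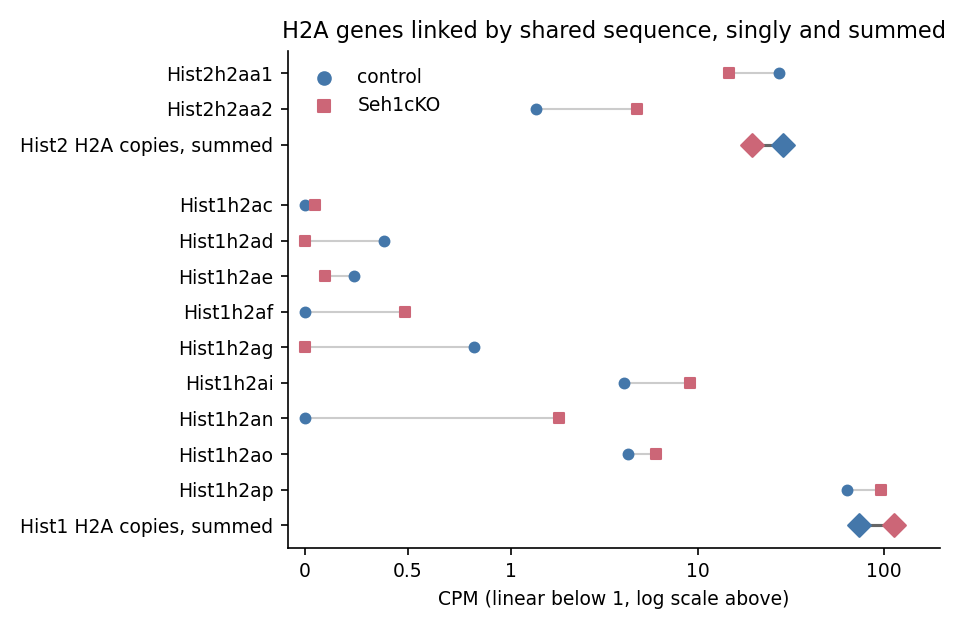
CPM of H2A genes linked by shared sequence in control (blue) and Seh1cKO (red), singly as circles and squares and summed as diamonds; the axis is linear below 1 CPM and logarithmic above. The summed Hist1 copies lie at 73.5 and 114 CPM and the summed Hist2 copies at 28.7 and 19.6 CPM, while single copies go both ways.

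The authors' deposited table of genes that differ, 896 in all or 4.80% of the genes in either library, lists 5 histone genes. It gives 3.53% of the genes in either library as higher and 1.27% as lower. In the authors' deposited table Hist1h2an, Hist2h2aa2 and Hist1h2ai are higher, with log2 fold changes of 8.75, 1.81 and 1.17. In the authors' deposited table Hist1h2ag and Hist3h2ba are lower, with log2 fold changes of -7.55 and -1.01. Of these 5, 4 belong to the linked H2A sets above, and the log2 fold changes of Hist1h2an and Hist1h2ag rest on an FPKM of 0.01 entered for the library without reads. Hist1h2an and Hist1h2ag lie in the same set with opposite signs. Hist2h2aa2 is listed as higher while its summed pair was 1.46-fold lower. Hist3h2ba is the 1 listed member outside such a set.

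The 3 H2B genes at the floor, of 13, were lower in Seh1cKO. Hist1h2bc (chromosome 13, 23684199 to 23692480), an H2B gene known to give polyadenylated mRNA, was at 42.4 CPM in control against 29.2 CPM in Seh1cKO, 1.45-fold lower (1.31 to 1.61). Hist3h2ba (chromosome 11, 58948911 to 58949372) was at 19.1 and 9.47 CPM, 2.02-fold lower (1.70 to 2.41) as a plain ratio. Its log2 ratio with the pseudocount was -0.94, just short of 2-fold. Hist2h2be was at 7.57 and 5.49 CPM, 1.38-fold lower (1.08 to 1.77). These 3 had intervals below 1. The 10 H2B genes under the floor went both ways: the 4 linked to Hist1h2bj had 30 reads in control against 39 in Seh1cKO, a ratio of 1.31 (0.792 to 2.18).

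The remaining cluster genes at the floor were lower or close to equal. Hist3h2a, an H2A gene beside Hist3h2ba, was at 19.7 CPM in control against 14.7 CPM in Seh1cKO, 1.35-fold lower (1.16 to 1.57). Hist1h1c, a linker gene, was at 10.9 and 9.27 CPM, with a ratio of 0.85 (0.698 to 1.04). Hist2h3c2, the 1 cluster H3 gene at the floor, was at 2.27 and 1.31 CPM from 47 and 27 reads, 1.73-fold lower (1.06 to 2.89). With Hist2h3b, linked to it by shared sequence, it was at 2.51 and 1.6 CPM, with a ratio of 0.639 (0.4 to 1.01), which was not separated from 1. Gm20634, outside the members, holds 63.5% of the stretches of Hist2h3c2 and 79.7% of those of Hist2h3b. Any reads assigned to Gm20634 are not in this sum. Hist1h2al, which RefSeq lists as a transcribed pseudogene, was at 3.14 and 2.82 CPM and its interval included 1.

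The other 41 cluster genes were under the floor and together had 156 reads in control against 170 in Seh1cKO, a ratio of 1.10 (0.877 to 1.37). None of the 9 H4 genes reached the floor, and they had 46 and 36 reads in all, a ratio of 0.788 (0.495 to 1.25). The highest H4 gene, Hist1h4i, had 25 and 13 reads. The 8 linked Hist1 H3 genes, in which shared stretches ran from 24.8% for Hist1h3d to 93.9% for Hist1h3h, had 11 and 22 reads, a ratio of 2.01 (0.935 to 4.60). At this depth neither difference was separated from equality. Of the 53 cluster genes, 12 were listed in control alone and 11 in Seh1cKO alone, 43.4% in all, against 8.69% of all genes. The H2A and H2B genes known from testis, Hist1h2aa and Hist1h2ba, had 1 and 4 reads in control against 0 in Seh1cKO. A count of 0 allows up to 3 reads, or 0.146 CPM in Seh1cKO.

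By position the values parted within a cluster as well as between clusters. On chromosome 13, the 16 members from 21716412 to 22043658 had 1575 reads in control against 2395 in Seh1cKO, a ratio of 1.53 (1.44 to 1.63). That block holds Hist1h2ap, Hist1h2ao and Hist1h2ai. The 26 members from 23531044 to 23934913, with Hist1h2bc and Hist1h1c, had 1167 and 853 reads, 1.36-fold lower (1.24 to 1.49). The 7 members of the Hist2 cluster on chromosome 3 (96220413 to 96270192) had 809 and 551 reads, 1.46-fold lower (1.31 to 1.63). The 2 members of the Hist3 cluster on chromosome 11 had 805 and 497 reads, 1.61-fold lower (1.44 to 1.80). Of these 4 blocks, the first was higher and the other 3 lower in Seh1cKO. Each ratio was set by a few genes: 3, 2, 4 and 2 members reached the floor. In the first block Hist1h2ap alone had 1322 reads in control and 1982 in Seh1cKO. In the second block Hist1h2bc alone had 878 and 601. The linked Hist1 H2A set has members in both chromosome 13 blocks, so shared reads can cross between them.

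The annotated 3′ ends were compared with the lengths used by the authors. In GENCODE, the Hist1h2ap transcript ends 3 bases after its stem-loop, and that of Hist2h2aa1 35 bases after it. Hist1h1c goes on for 840 bases past the stem-loop, Hist3h2a for 1643, Hist2h3c2 for 377 and Hist3h2ba for 169. The deposited lengths of those 4 genes end near the stem-loop instead: Hist3h2a has 508 bases against 2146 in GENCODE, and Hist1h1c 725 against 1560. Reads from a longer polyadenylated form would then lie partly outside the counted length. Whether this changed a ratio was not tested. A poly(A) signal (AATAAA or ATTAAA) stood in the last 60 bases of 8 of 10 replacement transcripts. Among the 11 cluster genes at the floor with a GENCODE transcript it stood in 4, Hist1h1c, Hist2h2be, Hist3h2a and Hist3h2ba, and in 8 of 41 under the floor. Ratios below 1 were found with the signal (these 4) and without it (Hist1h2bc, Hist2h2aa1 and Hist2h3c2). The 4 genes with ratios above 1 (Hist1h2ap, Hist1h2ao, Hist1h2ai and Hist2h2aa2) were without it. They are not separate cases. Hist1h2ap, Hist1h2ao and Hist1h2ai lie in the same linked set. Hist2h2aa2 shares 100% of its stretches with Hist2h2aa1, and that pair summed was 1.46-fold lower. The GENCODE model of Hist1h2ai has 393 bases and no stem-loop match, and a model that stops at the coding end cannot hold the signal. A link between the signal and the ratios was not tested.

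**Figure D4:**
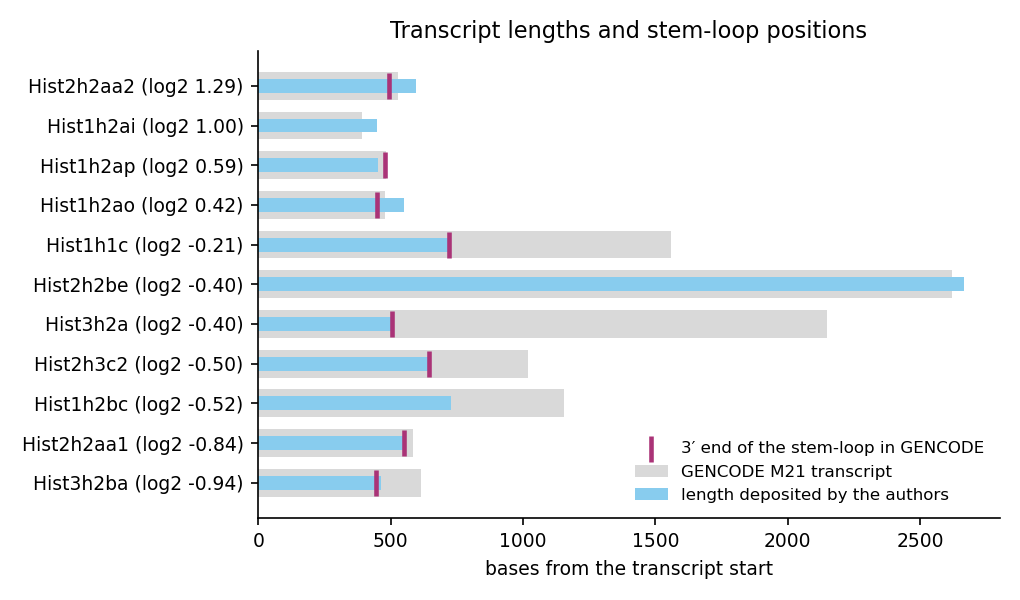
Length in bases of the GENCODE M21 transcript (grey) and of the transcript deposited by the authors (blue), each drawn from its own start, for the 11 cluster genes at the floor with a GENCODE transcript. Purple ticks mark the 3′ end of the stem-loop, and genes are ordered by the log2 ratio given beside the name; Hist3h2a and Hist1h1c run furthest past the tick.

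Libraries made without poly(A) selection hold many RNAs that lack a tail, so such RNAs were checked beside the stem-loop genes. Of 14 listed, 7 had an entry in either library. Rn7sk, an abundant nuclear RNA, had 5 reads in control against 17 in Seh1cKO, and Rn7s1 and Rn7s2, copies of the signal recognition particle RNA, each had 20 and 17. Rn45s, the ribosomal RNA precursor, was the 1 gene at the floor, at 22 and 24.1 CPM. The labels name total RNA, and the sources used here do not state a selection step. Whether tailed mRNA was selected was not tested.

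Promoters of the classes differ in sequence, and those of 3 genes are shown because the first gene was higher in Seh1cKO, the second lower, and the third had an interval that included a ratio of 1. Each is the RefSeq sequence (GRCm38.p6) of the 250 bases before the annotated start. Capitals mark the motifs CCAAT and TATAAA on either strand; the octamer ATTTGCAT was searched too and is in none of these 3.
Hist1h2ap, chr13:21833476-21833725, minus strand: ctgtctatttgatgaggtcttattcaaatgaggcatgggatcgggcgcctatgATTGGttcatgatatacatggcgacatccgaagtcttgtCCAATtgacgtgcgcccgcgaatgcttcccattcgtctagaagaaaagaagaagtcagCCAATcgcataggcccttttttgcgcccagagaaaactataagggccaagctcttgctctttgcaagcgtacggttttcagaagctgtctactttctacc
Hist3h2ba, chr11:58948661-58948910, plus strand: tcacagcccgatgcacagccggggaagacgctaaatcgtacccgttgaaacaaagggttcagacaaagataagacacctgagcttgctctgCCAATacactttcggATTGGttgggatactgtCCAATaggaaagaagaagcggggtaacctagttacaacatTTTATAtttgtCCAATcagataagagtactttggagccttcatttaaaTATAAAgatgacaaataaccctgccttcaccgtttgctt
H2afz, chr3:137864237-137864486, plus strand: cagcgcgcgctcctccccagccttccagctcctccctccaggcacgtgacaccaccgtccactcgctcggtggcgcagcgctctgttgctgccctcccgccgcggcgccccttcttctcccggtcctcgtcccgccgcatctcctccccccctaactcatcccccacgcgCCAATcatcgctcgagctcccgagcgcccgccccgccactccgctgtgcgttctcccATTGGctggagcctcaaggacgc

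In windows from 250 bases before to 50 after the start, CCAAT on either strand occurred in 42 of the 48 cluster genes with a promoter entry (87.5%), in 6 of 9 replacement genes and in 41.1% of 27025 genes. TATAAA occurred in 27 of the 48 (56.2%), in 1 of 9 replacement genes (H3f3b) and in 15.7% of all genes. ATTTGCAT, the octamer known from H2B promoters, occurred in 5 of 11 H2B and 5 of 15 H2A cluster genes. It also occurred in 1 of 9 replacement genes (H3f3b) and in 1.97% of all genes. The H2A and H2B counts are not separate, because windows of facing genes overlap. Hist1h2aa and Hist1h2ba hold the same octamer site, and so do Hist1h2ae and Hist1h2bg. CCAAT stood in all 39 cluster promoters of H1, H2A, H2B and H3 and in 3 of 9 of H4. Of the 9 cluster genes at the floor with an entry, 9 held CCAAT and 2 held TATAAA. Of all 10920 genes at the floor with an entry, 43% held CCAAT and 8.61% held TATAAA. The letters describe these windows and are not shown to be bound.

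Genes that act in S phase were higher in Seh1cKO throughout the list. All 32 had log2 ratios above 0, from 0.13 to 1.15 with a median of 0.63, where 60.9% of all genes at the floor were above 0. Of the 32, 3 passed 2-fold upward, beside 2.86% of all genes at the floor. Under the rescaling alternatives all 32 stayed above 0. Pole, the catalytic subunit of a replicative DNA polymerase, was at 10.7 CPM in control against 24.9 CPM in Seh1cKO, 2.33-fold higher (1.99 to 2.74). Mcm5, a subunit of the helicase that opens DNA, was 2.08-fold higher (1.88 to 2.30) and Cdc6, which loads that helicase, 2.25-fold higher (1.76 to 2.88). Mcm2 of the same helicase was at 31.1 and 57.6 CPM, and Rrm2, which makes deoxynucleotides, at 71.3 and 142 CPM. Pcna, the clamp of replicating polymerases, was at 138 and 184 CPM, 1.33-fold higher (1.27 to 1.40).

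Genes that make and process histone mRNA were mixed. Of 23, 14 were above 0 and 9 below, beside 60.9% and 39.1% of all genes. Under median-of-ratios scaling, 4 of the 14 (Nfya, Nfyb, Cpsf3 and Eri1) went below 0. None of the 23 passed 2-fold, and the median log2 ratio was 0.06, close to the 0.07 of all genes. Slbp, which binds the stem-loop and is itself tied to S phase, was at 25.4 CPM in control against 38.4 CPM in Seh1cKO, 1.52-fold higher (1.36 to 1.70). Npat, the coactivator of histone gene transcription, was at 19.4 and 25 CPM, 1.28-fold higher (1.12 to 1.47). E2f1, an activator of S phase genes, was 1.73-fold higher (1.51 to 1.99), and Hinfp, a factor of H4 genes, 1.44-fold higher (1.10 to 1.90). Cstf2, a subunit of the cleavage machinery, was at 124 and 90.9 CPM, 1.37-fold lower (1.29 to 1.45).

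Among 29 histone chaperones and exchange factors, 22 were above 0 and 7 below, with a median log2 ratio of 0.13, beside 60.9% above 0 and a median of 0.07 for all genes. The list had 17 of 29 above that median. Of the 22, 5 (Rbbp4, Atrx, Anp32e, Znhit1 and Ep400) went below 0 under median-of-ratios scaling. None passed 2-fold on the log2(CPM + 1) scale, on which Chaf1b was just within it. Chaf1b and Chaf1a, subunits of the assembly factor that places new H3 and H4 behind the replication fork, were 2.12-fold higher (1.76 to 2.55) and 1.57-fold higher (1.41 to 1.74). Asf1b, which hands H3 and H4 to that factor in dividing cells, was at 9.41 and 14.7 CPM, 1.56-fold higher (1.30 to 1.88), and its sister Asf1a at 39.7 and 44.1 CPM. Hira, which places the replacement H3 outside S phase, was at 82.2 and 80.7 CPM, with a ratio of 0.982 (0.917 to 1.05). Daxx and Atrx, which place it at repeats and telomeres, had log2 ratios of -0.03 and 0.06. Cenpa, the H3 variant of centromeres, was at 38.6 and 43.5 CPM, 1.13-fold higher (1.02 to 1.24). Fibroblast markers and 4 of the 5 epithelial markers were higher in the same library, as given above. Which cells carried these reads was not tested.

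**Figure D5:**
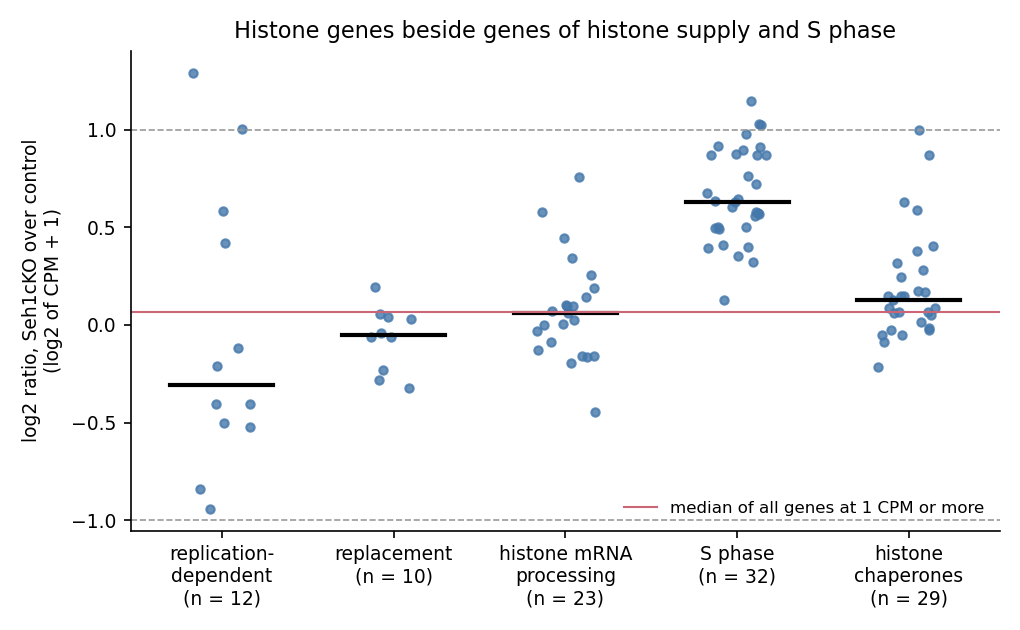
Log2 ratio of Seh1cKO over control, on log2(CPM + 1), for genes at the floor in the histone classes and in 3 lists of histone supply and S phase; points are genes, black bars medians, dashed lines 2-fold and the red line the median of all genes. The S phase list lies above 0 throughout (median 0.63), the replacement genes lie near 0 (median -0.05), and the cluster genes spread from -0.94 to 1.29.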

How the data were processed

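For each library the authors deposited a table with an expected count, an FPKM value and a transcript length per gene. HTSeq, StringTie and mm10 come from the submitters' processing notes, with no role for any of them. Aligner, annotation and strandedness: not given in the sources used here. A further table, deposited by the authors, gives log2 fold changes and p-values, and the sources used here do not name its test. Expected counts were rounded and scaled to CPM; genes missing from a table were set to 0. The log2 ratio is log2(CPM + 1) in Seh1cKO minus control, which understates differences of low genes. Genes at a mean of at least 1 CPM were measured and called at 2-fold. With 1 library per group there was no test. Intervals are exact (Clopper-Pearson, 95%) and cover counting error only; reads without molecular identifiers may make them too narrow. The functions were tested on simulated data. Stem-loops and shared 50-base stretches come from GENCODE M21, promoters and positions from RefSeq GRCm38.p6. Values are given for every replacement gene, the 15 most abundant cluster genes, those past 2-fold, the 2 nearest equality, and the 4 largest differences and some set genes of each list; others named were chosen after their values were seen. Members and lists were chosen with earlier results of these data known. Germ cell markers (2 of 5 listed in the files) had 12 and 9 reads. Python 3.11.15, scipy 1.17.1 and pandas 2.3.3 were used.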

Additional observations from a re-analysis of the deposited data

How the results depend on the processing

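No paired analysis was possible because each group has 1 library. The replacement class had 0 genes past 2-fold under the 8 alternatives run, and its median stayed between -0.13 and -0.05. For the cluster genes, 2 were at least 2-fold higher; this was 0 with a pseudocount of 5 CPM or with linked members pooled, and 1 after either rescaling (median of ratios, upper quartile) or with a floor of 5 CPM. None was at least 2-fold lower in the main setting, and 1 was with a pseudocount of 0.1 CPM or after rescaling by the median of ratios. Their median log2 ratio was 0.00042 with no floor, where 53 genes, mostly with few reads, entered; its difference from the replacement median then went from -0.26 to 0.051. The summed ratio of the cluster genes was 0.939 after rescaling by the median of ratios, 1.05 on FPKM and 0.698 without the 9 linked Hist1 H2A genes. That of the replacement genes was 0.895 and 0.914 after either rescaling and 0.930 on FPKM, from 0.944. The median of the mRNA processing list turned to -0.012 after rescaling by the median of ratios; the S phase and chaperone medians kept their sign in the 7 alternatives run for them. Over all genes, 394 were at least 2-fold higher, and 637 with a pseudocount of 0.1 CPM, 141 with 5 CPM, 204 on FPKM and 228 with a floor of 5 CPM; 178 were at least 2-fold lower, and 116 with a pseudocount of 5 CPM. The share of higher calls was 68.9%, and 54.9% with a pseudocount of 5 CPM and 58.0% on FPKM. Pooling of linked members was chosen after seeing the data, as was leaving out the Hist1 H2A copies. The 41 cluster genes under the floor had too few reads for a ratio each; whether depth or capture of RNA without a tail set this was not tested.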

Other observations

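Many H2A and H2B cluster genes start side by side on opposite strands. Among the 57 members with a promoter entry, 6 such pairs had starts less than 1000 bases apart, all on chromosome 13. Members without an entry were not searched. Among them are the H2B genes Hist1h2bc (878 reads in control and 601 in Seh1cKO) and Hist2h2be (157 and 113). Hist1h2ap and Hist1h2br start 268 bases apart: Hist1h2ap had 1322 reads in control and 1982 in Seh1cKO, and its H2B partner Hist1h2br had 14 in both. Hist1h2ao and Hist1h2bq start 168 bases apart, with 88 and 124 reads for the H2A gene and 14 in both libraries for the H2B gene. Hist1h2bq and Hist1h2br share nearly every stretch of 50 bases and carry the same deposited expected counts. In the other 4 pairs no gene had more than 37 reads in a library.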
